A study of Mus musculus with 41 samples.

Results

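Callus RNA of old mice was compared with that of young mice 20 days after tibial fracture. The 10 arrays were chosen by their labels alone, as the 5 of mice aged 25 months (old) and the 5 of mice aged 5 months (young) taken at day 20, out of 41 arrays in the series. The other arrays came from the same ages at days 0, 5 and 10 and are used below only to place the day 20 values. Affymetrix Mouse Gene 1.0 ST arrays measured cDNA amplified from total RNA, and values are log2 normalized intensities for 19938 genes. All mice, old and young alike, came from the aged rodent colony of the NIH. Those of the 10 day 20 arrays had both tibiae pinned and closed-fractured, and received buprenorphine and isoflurane. Pinning, analgesia and anaesthesia are thus shared by both day 20 groups. Strain and sex are not in the labels, each array came from a different mouse, and the extracts were of callus alone or of whole bone without a record of which array held which. A difference is therefore one between tissue extracts that may hold unequal amounts of marrow, muscle and callus, and fewer cells of a type cannot be told apart from less RNA per cell.

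A closed fracture in the mouse heals through a cartilage template that is replaced by woven bone, the hard callus, and then cut back by osteoclasts. Inflammatory cells enter early, draw further cells in with chemokines, and normally become scarce as bone forms, while marrow reoccupies the callus during remodelling. Chemokines are small secreted proteins that direct leukocytes along a gradient. Interferons induce a wide set of antiviral and antigen-presenting genes in most cells that receive them.

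The tissue carried the transcripts that its label implies. At day 20 Col10a1, the collagen of hypertrophic cartilage, was at 8.50 ± 0.32 (SD, n = 5) in young and 8.75 ± 1.21 in old callus, between its levels at day 0 (6.32 ± 0.22 and 6.22 ± 0.13) and day 10 (11.21 ± 0.23 and 11.44 ± 0.42). Ibsp, which encodes bone sialoprotein of osteoblasts, was at 12.26 ± 0.11 in young and 11.94 ± 0.29 in old callus, against 9.88 ± 0.63 and 9.88 ± 0.57 at day 0. Ctsk, the collagen-cutting protease of osteoclasts, was at 11.93 ± 0.15 and 11.78 ± 0.22, against 8.65 ± 0.40 and 9.14 ± 0.86 at day 0. Cartilage, bone and osteoclast transcripts were thus all present in callus of both ages. The Y-linked Eif2s3y lay between 7.80 and 8.38 and Xist between 3.47 and 3.99 over the 10 arrays, so no array stood apart by sex-linked genes. Old replicate 3 did stand apart in general: its median Pearson correlation over genes with the young arrays was 0.965, where the other 4 old arrays had 0.979 to 0.986. Within their own group old replicates 2 and 3 were about equally low, at 0.974 and 0.975, where the other old arrays had 0.978 to 0.984.

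The chemokine Ccl8 was the only gene of 19938 called at an adjusted p under 0.05 (0.00502% called), and it was higher in old callus. Its gene (Entrez 20307) lies at chr11:82115185-82116799 in GRCm38.p6. It encodes a CC chemokine that attracts monocytes and lymphocytes. Since the report turns on this gene, the 250 bases before its RefSeq start (chr11:82114935-82115184, plus strand) are shown, with a TATA-box hexamer at −32 to −27 from the start in capitals.
Ccl8 promoter: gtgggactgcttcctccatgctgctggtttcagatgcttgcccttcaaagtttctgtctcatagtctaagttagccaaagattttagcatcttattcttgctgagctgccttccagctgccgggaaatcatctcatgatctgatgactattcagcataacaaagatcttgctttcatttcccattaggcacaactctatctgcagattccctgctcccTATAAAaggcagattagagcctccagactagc
The letters TATAAA on the gene strand in the last 50 bases before the start were found in 2.63% of 32851 mouse promoters, and of 13 promoters matched among the 20 genes described below only that of Ccl8 held them. A core of interferon-stimulated elements, GAAA repeated after any 2 bases, was sought on both strands of the 250 bases and found in 2.98% of all promoters and in 0 of the 13.

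Young callus had Ccl8 at 5.34, 5.95, 6.23, 5.90 and 5.62 in replicates 1 to 5, and old callus at 7.69, 7.18, 8.05, 7.65 and 7.96. Every old array lay above every young array, and the spread within the ages was the same (SD 0.34 in each). The difference was 1.90 ± 0.33 (SE), or 3.73-fold, with an adjusted p of 0.0322 (limma, Benjamini-Hochberg over all genes). An exact permutation test, two-sided and not adjusted, gave p = 0.0079, the smallest that 5 against 5 arrays allow. Any gene whose old and young arrays do not overlap would give this value. Over all genes 86 were higher and 211 lower without overlap, so this p adds nothing to the lack of overlap. The call ended in 5 of 10 fits that left out 1 array, where the adjusted p ran from 0.010 to 0.145 while the difference stayed between 1.78 and 2.03. It was lost without young replicate 1 (0.107), 2 (0.0743) or 4 (0.0677) and without old replicate 3 (0.110) or 5 (0.145), and also in an unmoderated test (0.0657).

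Across the time course Ccl8 was lowest before fracture and highest at day 5. Young mice had 4.39 ± 0.65 at day 0, 10.08 ± 0.24 at day 5, 8.84 ± 0.76 at day 10 and 5.81 ± 0.34 at day 20. Old mice had 6.32 ± 0.75, 9.95 ± 0.38, 8.42 ± 0.65 and 7.71 ± 0.34 (n = 6 at day 0, otherwise 5). The means of the ages were apart at both ends of the course and close between them. The old minus young difference was 1.93 at day 0 (adjusted p = 0.0051), −0.13 at day 5, −0.42 at day 10 and 1.90 at day 20. The day 20 difference exceeded that at day 10 by 2.32 ± 0.47, with an adjusted p of 0.18 over all genes, so a change of the age difference between these days was not called.

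**Figure D1:**
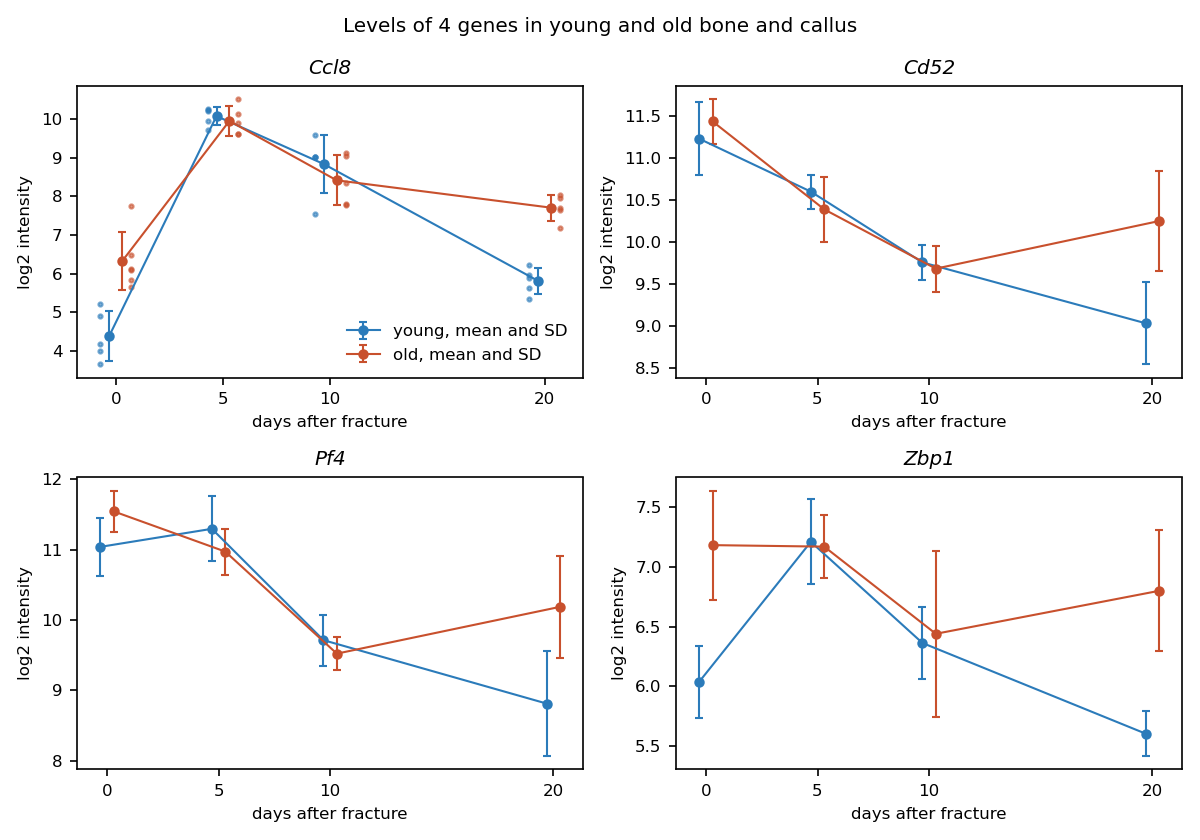
Group means with SD of Ccl8, Cd52, Pf4 and Zbp1 in log2 intensity (y axis) against days after fracture (x axis) for young (blue) and old (orange) mice, with single arrays as dots for Ccl8. For Ccl8, Cd52 and Zbp1 the ages lie close together at days 5 and 10. The platelet gene list, which holds Pf4, had a median age difference of 0.55 at day 5 and −0.19 at day 10. The means of all 4 genes lie apart at day 20, where Ccl8 stood at 5.81 in young and 7.71 in old callus.

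Since a single gene was called, the 20 named genes with the smallest p are described, of which the 19 besides Ccl8 had adjusted p values from 0.0514 to 0.0917 and were not called. Of the 20, 10 had the higher mean in old and 10 in young callus. The old and young arrays did not overlap for 7 of the 10 higher and 7 of the 10 lower genes. Over all genes 0.431% were higher and 1.06% lower without overlap, and because p chose the 20, that contrast is a description. The differences were unequal in size: 7 of the 10 higher genes exceeded 1 log2 unit, against 0 of the 10 lower, which lay between −0.33 and −0.86. Over all genes 0.306% exceeded 1 log2 unit upward and 0.015% downward.

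The higher genes included transcripts of leukocytes and of their signals. Cd52 encodes a small surface glycoprotein of lymphocytes and monocytes. It was at 8.92, 8.78, 9.43, 8.42 and 9.63 in young and at 9.65, 10.10, 11.11, 9.82 and 10.58 in old callus. The ages did not overlap, although the highest young and lowest old array were nearly level, and the difference was 1.22 ± 0.23 (adjusted p = 0.0514). Ccl5 encodes a chemokine made by T cells and a lure for them. Its young arrays read 7.24, 6.62, 7.25, 6.80 and 7.36, its old arrays 7.71, 8.08, 11.18, 7.96 and 9.42. All old arrays were above all young ones, but old replicate 3 was far above the rest, and the difference of 1.82 ± 0.42 was 1.24 without old replicate 3. Ms4a4b, a membrane protein of T cells, had 4.69 to 5.44 in young and 5.49, 5.30, 8.20, 5.93 and 6.81 in old callus, again with replicate 3 on top (1.40 ± 0.31).

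Zbp1, an interferon-induced sensor of nucleic acids in the Z form, was at 5.63, 5.33, 5.59, 5.85 and 5.64 in young and at 6.33, 6.31, 7.52, 6.99 and 6.86 in old callus. The groups did not overlap, and the difference was 1.20 ± 0.25 (adjusted p = 0.0686). At day 0 it was called, at 1.14 (adjusted p = 0.0452), while at days 5 and 10 the means differed by −0.04 and 0.08. Pf4 encodes platelet factor 4, a chemokine stored in megakaryocytes and platelets. It read 8.78, 8.16, 9.73, 8.02 and 9.36 in young and 10.33, 9.23, 11.21, 9.87 and 10.29 in old callus, so that old replicate 2 lay within the young range (1.38 ± 0.29). Hspb7, a small heat shock protein of heart and skeletal muscle, read 5.95, 6.18, 6.84, 6.44 and 5.84 in young and 7.10, 7.58, 8.34, 6.74 and 8.89 in old callus (1.48 ± 0.30), with old replicate 4 under the highest young array. Smaller differences were measured for Orai2, a subunit of calcium entry channels (0.63 ± 0.14), Nlrx1, a mitochondrial protein of innate immunity (0.52 ± 0.11), and the lipocalin Lcn4 (0.43 ± 0.09), all 3 without overlap.

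The 10 genes with lower means in old callus were of mixed function. Snord52, a small nucleolar RNA of the class that guides methylation of ribosomal RNA, was at 5.58, 5.05, 5.21, 5.14 and 5.22 in young and at 4.31, 4.31, 5.09, 4.31 and 3.87 in old callus. Old replicate 3 reached the young range and the other 4 did not (−0.86 ± 0.20). The trypsin-like protease gene Prss48 differed by −0.66 ± 0.15 and Stk19 by −0.57 ± 0.12, both without overlap. Genes of zinc finger proteins, which bind DNA, made up 3 of the 10: Zfp110 (−0.51 ± 0.11, no overlap), Zfp30 (−0.46 ± 0.10) and Zkscan7 (−0.42 ± 0.09). Smco4 (−0.48 ± 0.11), Txnl4b (−0.47 ± 0.11), Calr4 (−0.44 ± 0.09) and Prr19 (−0.33 ± 0.07) had no overlap. In Txnl4b, a relative of a spliceosome protein, the 5 young arrays lay within 7.46 to 7.58 and the old ones within 6.86 to 7.32.

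**Figure D2:**
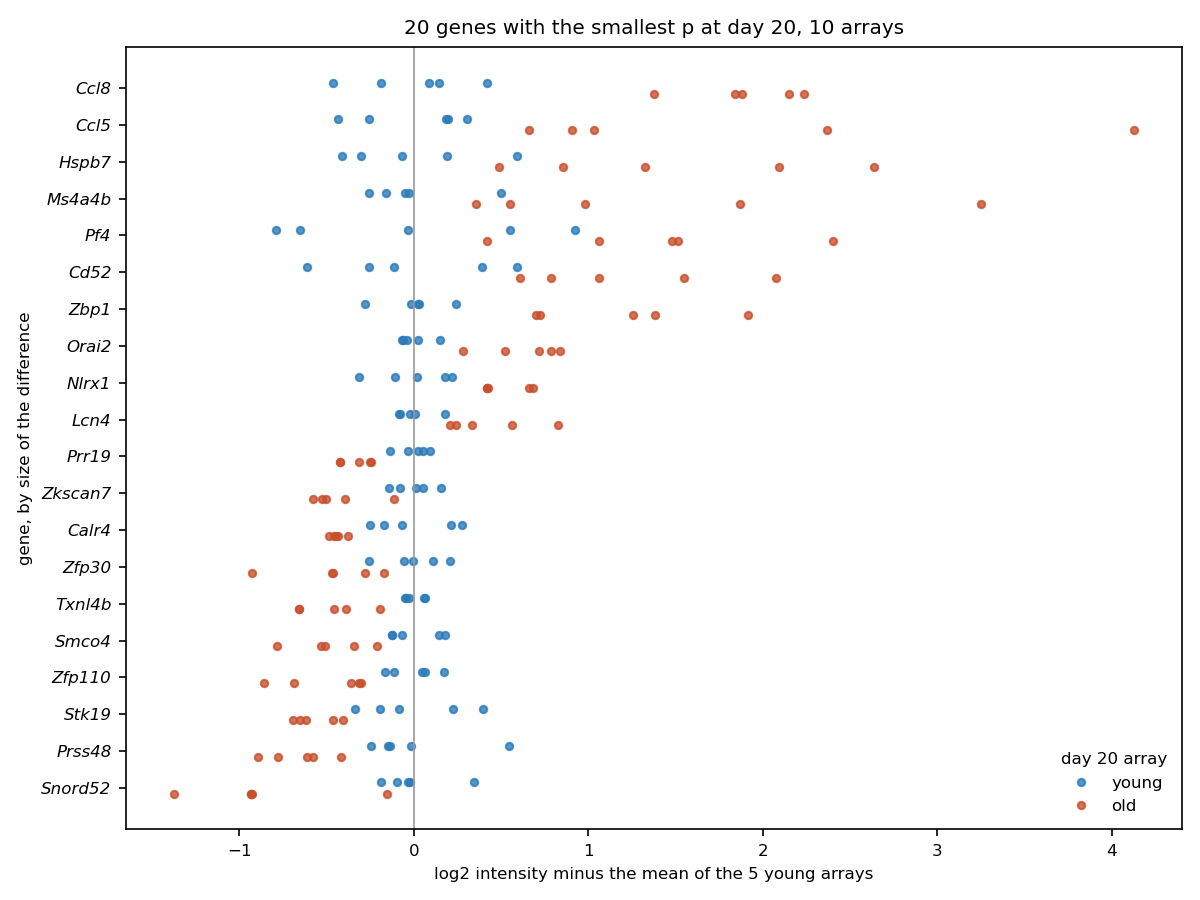
Each dot is 1 day 20 array of the 20 genes with the smallest p (y axis, ordered by difference), as log2 intensity minus the mean of the 5 young arrays (x axis), young blue and old orange. The spread of the old arrays differs between genes: among the higher genes it runs from 7.71 to 11.18 for Ccl5 and from 7.18 to 8.05 for Ccl8.

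The age differences of these genes at other days came from other mice. Of the 20, 15 had the same sign at day 0, 12 at day 5 and 9 at day 10. With an unadjusted p under 0.05 as well, the counts were 6, 3 and 1. Day 0 thus resembled day 20 more often among these genes than day 10 did, a contrast that was not tested. For Cd52 the differences were 0.21, −0.21 and −0.07 at days 0, 5 and 10, and for Ccl5 1.58, 0.71 and 0.11.

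Gene lists for tissues and pathways were then read by their members' counts and median difference. Over all genes the median difference was −0.03, 43.2% had a higher mean in old callus, and at an unadjusted p under 0.05 5.99% were higher and 8.66% lower. Ccl8 was the only member called in any list, so the counts that follow use that unadjusted threshold and describe these arrays. Members of a list often vary together across arrays, and their counts are not independent of each other. In 41 lists the medians ran from −0.22 for fibrous matrix to 0.88 for megakaryocytes and platelets.

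**Figure D3:**
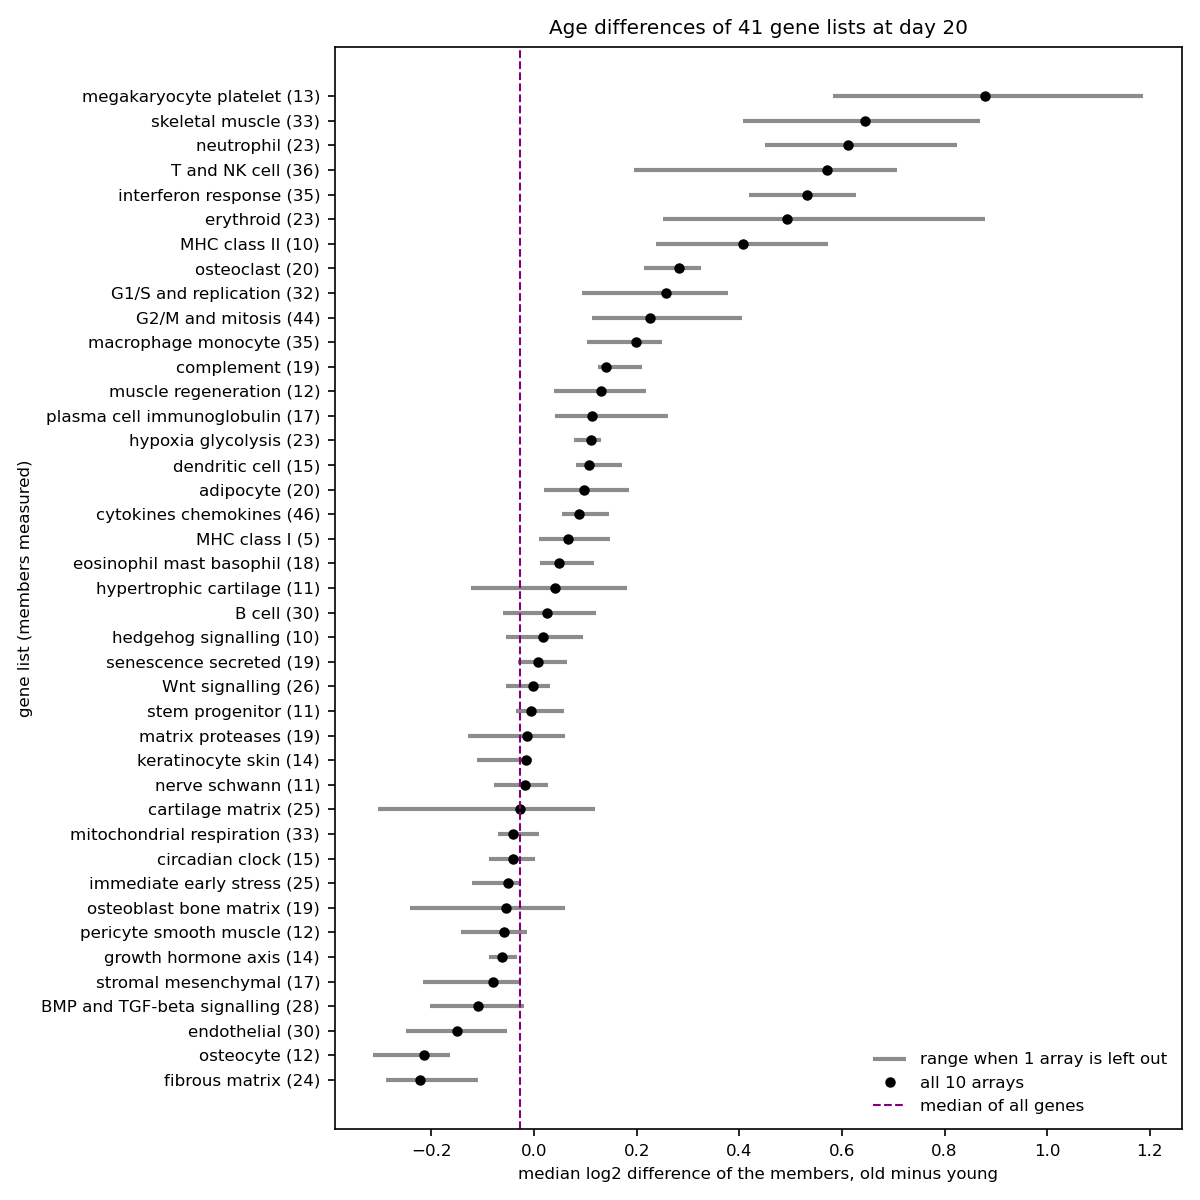
Median log2 difference, old minus young at day 20 (x axis), of the members of 41 gene lists (y axis, members measured in brackets), with the range of that median when 1 of the 10 arrays is left out as a grey bar and the median of all genes, −0.03, as a dashed line. Lists of blood, immune and muscle cells lie to the right, fibrous matrix, osteocyte and endothelial lists to the left.

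Chemokines and cytokines carry the signals that bring leukocytes into callus. Of 46 measured, 30 had a higher mean in old callus, 9 were higher at unadjusted p under 0.05 and 0 lower, and the median was 0.09. The 9 were Ccl8, Cxcl9, Ccl5, Lcn2, Ccl12, Cxcl10, Saa3, Tnfsf13b and Ccl4. Of these, Lcn2 and Saa3 are in the list without being chemokines or cytokines. Lcn2 is counted again among the neutrophil genes below and Ccl5 among the T and NK cell genes. Cxcl9, an attractant of activated T cells that interferon gamma induces, read 7.23, 6.59, 7.37, 6.50 and 8.16 in young and 7.56, 8.09, 9.79, 9.56 and 10.21 in old callus. Old replicates 3, 4 and 5 were above all young arrays and replicates 1 and 2 were not (1.87 ± 0.48, adjusted p = 0.115). Ccl12, a monocyte attractant of the mouse, had 4.80 to 5.64 in young and 5.67 to 6.60 in old callus without overlap (0.90 ± 0.25, adjusted p = 0.137). The first 2 members of the list, the inflammatory cytokines Il1a and Il1b, did not pass that threshold. Il1b differed by 0.01 ± 0.36 and Il1a by 0.30 ± 0.29. Ifng, which encodes interferon gamma itself, differed by 0.08 ± 0.09.

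Interferon response genes had a higher mean in old callus in 34 of 35 cases, with a median of 0.53. At unadjusted p under 0.05 18 were higher and 0 lower, and the ages did not overlap for Zbp1 and Oas2. The list mean was 6.24, 6.02, 6.31, 6.11 and 6.51 in young replicates 1 to 5 and 6.45, 6.33, 7.21, 7.19 and 6.71 in old ones. Old replicates 3 and 4 were highest and replicates 1 and 2 were within the young range. Among the members furthest apart were Ubd, a ubiquitin-like protein (1.21 ± 0.38), the GTPase Iigp1 (0.95 ± 0.36), and Irf7, a transcription factor of the type I response (0.86 ± 0.29, adjusted p = 0.196). Leaving out single arrays gave medians of 0.42 to 0.63 and counts of 11 to 22, with 11 when old replicate 3 or 4 was absent. At the other days the median was 0.56 (day 0), 0.00 (day 5) and 0.07 (day 10).

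T and NK cell genes were led by few arrays. Of 36 measured, 32 had a higher mean in old callus, 21 were higher and 1 lower (Gzma, −0.29 ± 0.13) at unadjusted p under 0.05, and the median was 0.57. The list mean was 4.99, 4.86, 5.01, 4.97 and 5.11 in young and 5.05, 5.02, 6.69, 5.27 and 5.71 in old replicates 1 to 5. Cd3e, a subunit of the T cell receptor complex, read 5.91, 5.84, 5.93, 5.85 and 6.24 in young and 6.27, 6.42, 8.73, 6.07 and 7.02 in old callus (0.95 ± 0.29, adjusted p = 0.162). Cd8a, the co-receptor of cytotoxic T cells, read 4.74 to 5.06 in young and 5.10, 4.97, 7.86, 5.39 and 6.93 in old callus. Old replicates 3 and 5 carried most of these differences, and replicates 1 and 2 were near the young arrays. Without old replicate 3 the list median was 0.19 and the count of higher members 10, and in a fit of the 10 day 20 arrays alone the count was 11. The groups did not overlap for Ccl5, Lat and Cd8b1.

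Antigen presentation and macrophage genes differed less. MHC class II genes, whose products show peptides to helper T cells, had 9 of 10 higher means and a median of 0.41, with 4 higher and 0 lower at unadjusted p under 0.05. Their leading members were Cd74, the invariant chain (0.90 ± 0.31), H2-DMa (0.72 ± 0.23) and H2-Aa (0.62 ± 0.21). H2-Aa read 9.36, 8.97, 9.45, 9.05 and 9.64 in young and 9.13, 9.84, 10.42, 9.89 and 10.27 in old callus, so that only old replicate 1 lay within the young range. MHC class I genes had a median of 0.07 over 5 members, 0 of them at unadjusted p under 0.05. Of 35 macrophage and monocyte genes 24 had a higher mean (median 0.20), 8 were higher and 0 lower at that threshold, among them Fcgr4, an activating receptor for antibodies (0.86 ± 0.27, no overlap), and Adgre1, a surface receptor of macrophages (0.52 ± 0.21). Complement genes had 6 of 19 higher and 0 lower (median 0.14), including all 3 subunits of C1q: C1qb at 0.81 ± 0.27, C1qa at 0.76 ± 0.28 and C1qc at 0.70 ± 0.23. C1qa read at most 7.30 in young callus and 6.80, 8.34, 8.66, 7.48 and 8.56 in old, so 4 of 5 old arrays were above all young ones. Without old replicate 3 the median was 0.24 for MHC class II and 0.10 for macrophage genes. The complement count was 3 without old replicate 3 or 5 or young replicate 4, 4 without young replicate 2 or 5, and the macrophage count 4 without young replicate 4 and 5 without young replicate 2.

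Transcripts of marrow cells were mostly higher, with wide spread between arrays. The SD of the list mean was 0.71 in young and 0.33 in old callus for neutrophil genes. It was 0.38 and 0.67 for platelet genes and 0.88 and 0.90 for erythroid genes. All 13 megakaryocyte and platelet genes had a higher mean in old callus (median 0.88), and 10 were higher and 0 lower at unadjusted p under 0.05. Clec1b, a platelet receptor, read 5.41, 5.14, 5.37, 4.83 and 5.34 in young and 6.64, 5.44, 7.59, 6.26 and 6.22 in old callus (1.21 ± 0.36, adjusted p = 0.155), without overlap, as did Vwf, the clotting protein of platelets and endothelium (0.63 ± 0.19). All 23 neutrophil genes had a higher mean (median 0.61), 11 were higher and 0 lower, with Lcn2 at 1.66 ± 0.45 and the granule proteases Prtn3 at 1.34 ± 0.44 and Elane at 1.31 ± 0.45. Lcn2 read 8.79, 7.98, 9.82, 6.66 and 10.28 in young and 10.01, 9.85, 10.79, 10.35 and 10.82 in old callus, and young replicates 3 and 5 were near the old level. The neutrophil count depended on the young arrays: it was 3 without young replicate 4, 5 without young replicate 2 and 18 without young replicate 5, and 7 without old replicate 3 or 4. The platelet median was 0.58 without old replicate 3. All 23 erythroid genes also had a higher mean (median 0.49), but 1 alone, the transcription factor Gata1 (0.68 ± 0.33), was at unadjusted p under 0.05. Their list mean spread from 6.58 to 8.67 over young arrays, and over old arrays from 6.65 in replicate 2 to its highest value in replicate 3. The erythroid median was 0.25 without young replicate 2, 0.31 without young replicate 4 or old replicate 3, 0.79 without young replicate 5 and 0.88 without old replicate 2, and the count ran from 0 to 8.

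Lymphoid genes of the B lineage did not move together. Of 30 B cell genes 16 had a higher mean in old callus (median 0.03), and 1 was higher and 3 lower at unadjusted p under 0.05. The 3 were genes of early B cell development: Vpreb1 (−1.20 ± 0.34) and Igll1 (−0.89 ± 0.25), which form the surrogate light chain, and Dntt, the enzyme that adds bases during receptor rearrangement (−0.50 ± 0.23). Vpreb1 read 7.61, 6.76, 8.16, 7.46 and 8.40 in young and 5.64, 5.75, 6.33, 7.30 and 7.35 in old callus. Old replicates 1 to 3 were below all young arrays and replicates 4 and 5 were among them (adjusted p = 0.136). Jchain, which joins antibody units in plasma cells, was in contrast at 4.77 to 7.04 in young and 7.05 to 8.79 in old callus (1.53 ± 0.49, adjusted p = 0.172), the ages touching but not overlapping. Xbp1, a transcription factor that plasma cells and other secretory cells use, differed by −0.30 ± 0.10.

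**Figure D4:**
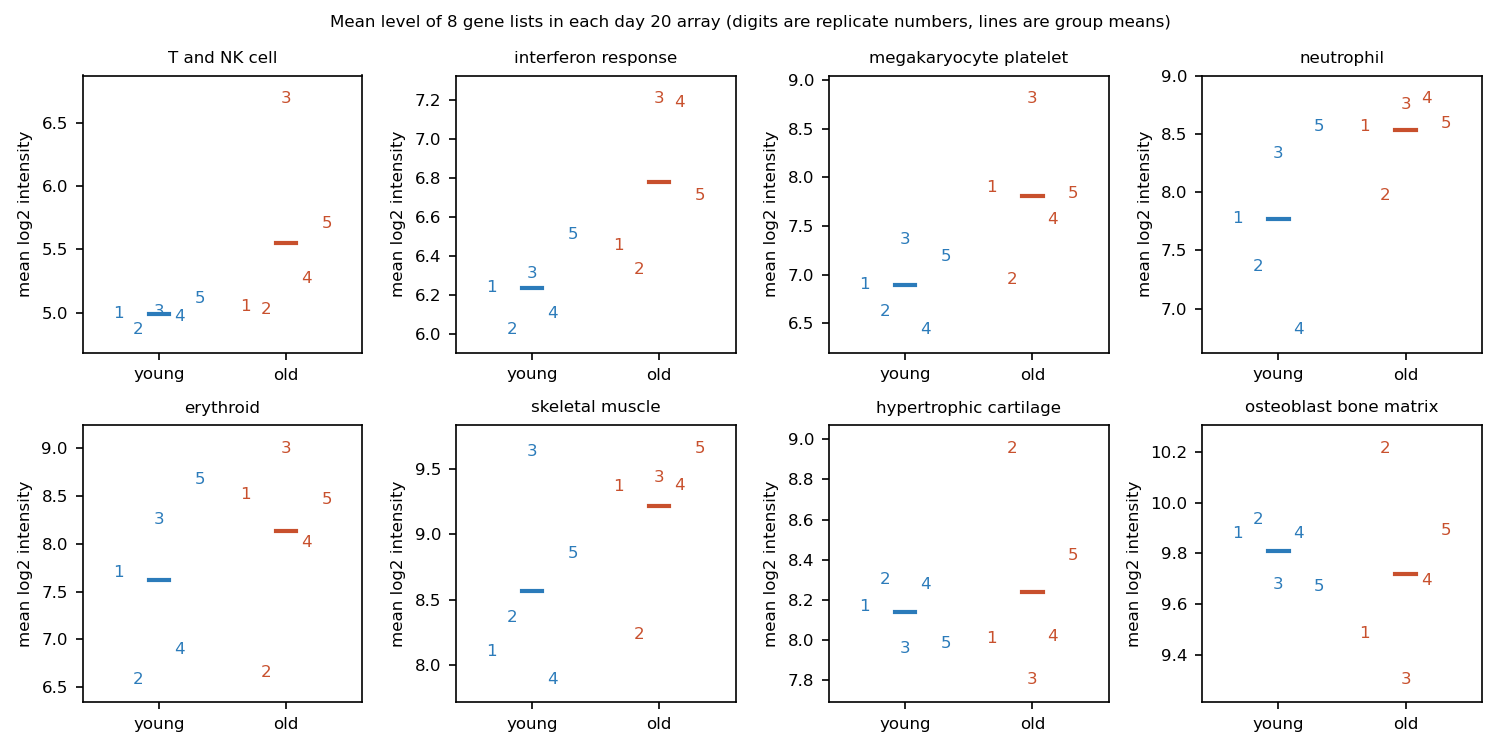
Mean log2 intensity (y axis) of the members of 8 gene lists in each of the 10 day 20 arrays, young blue and old orange, with digits for replicate numbers, bars for group means and y axes that differ between panels and do not start at 0. Old replicate 3 is highest in the T and NK cell list (6.69), and old replicate 2 is lowest of the old arrays in the neutrophil, platelet, erythroid and muscle lists and highest in the hypertrophic cartilage list (8.96).

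Skeletal muscle transcripts differed as much as those of blood cells, and muscle surrounds the tibia. Of 33 genes 32 had a higher mean in old callus (median 0.65), 13 were higher and 0 lower at unadjusted p under 0.05, and no member was without overlap. Acta1, skeletal alpha actin, read 10.36, 10.36, 11.93, 9.69 and 11.39 in young and 11.38, 11.00, 11.93, 11.56 and 12.24 in old callus (0.87 ± 0.27, adjusted p = 0.168). Myh1, a fast myosin heavy chain, differed by 1.10 ± 0.42. The list mean was 7.89 to 9.63 in young and 8.24 to 9.66 in old callus. Young replicate 3 lay among the old arrays and old replicate 2 among the young ones. The other young arrays (7.89 to 8.85) lay below the other old arrays (9.37 to 9.66). The count of higher muscle genes was 26 without young replicate 3 and 25 without old replicate 2, against 8 without young replicate 1 or 4 or old replicate 5. Hspb7 and the platelet, neutrophil and erythroid lists were also higher on average in old callus, and the part of muscle in those differences was not tested. Muscle regeneration genes had a median of 0.13 over 12, with Myod1 at 0.20 ± 0.25 and Myog at 0.32 ± 0.30.

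Genes of the callus itself showed small differences. Of 25 cartilage matrix genes 11 had a higher mean in old callus (median −0.03), 1 was higher (Cilp, 0.77 ± 0.28) and 1 lower (Col11a2) at unadjusted p under 0.05. Col2a1, the main cartilage collagen, read 7.86, 8.16, 8.52, 8.13 and 7.18 in young and 7.45, 7.79, 6.68, 7.16 and 7.30 in old callus (−0.69 ± 0.37, adjusted p = 0.377), and Acan, the aggrecan core protein, differed by 0.02 ± 0.50. Old replicate 2 held more cartilage transcript than the other old arrays, with Col10a1 at 10.72 against 7.65 to 9.07. Leaving it out moved the cartilage median to −0.30. Hypertrophic cartilage genes had a median of 0.04 over 11, with 1 at unadjusted p under 0.05 (Runx3, 0.69 ± 0.22). Among 19 osteoblast and bone matrix genes 7 had a higher mean (median −0.05) and 0 passed in either direction, but 5 were lower when the fit used the 10 day 20 arrays alone. Ibsp read 12.13 to 12.38 in young and 11.47 to 12.19 in old callus (−0.31 ± 0.29), and Sp7, a transcription factor that osteoblasts need, differed by 0.10 ± 0.35.

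Fibrous, osteocyte and vessel genes had the 3 lowest list medians. Of 12 osteocyte genes 11 had the lower mean in old callus (median −0.21), and 1, Fgf23, was lower at unadjusted p under 0.05. Dmp1, a mineral-binding protein of osteocytes, read 10.91, 10.98, 10.55, 10.91 and 10.41 in young and 10.07, 10.56, 9.57, 10.53 and 10.22 in old callus (−0.56 ± 0.45). Fibrous matrix genes had a higher mean in 6 of 24 (median −0.22) and 2 lower at that threshold, Col6a1 (−0.54 ± 0.26) and Col5a1 (−0.47 ± 0.20). In a fit of the 10 day 20 arrays alone 5 osteocyte and 5 fibrous genes were lower, and leaving out 1 array gave 0 to 1 and 0 to 3. Without old replicate 3 the fibrous median was −0.11. Of 30 endothelial genes 7 had a higher mean (median −0.15), 6 were lower and 1, Vwf, higher. The 6 were Aplnr (−0.58 ± 0.23), the VEGF receptor Kdr (−0.47 ± 0.18), the junction cadherin Cdh5 (−0.40 ± 0.17), Cldn5, Pecam1 (−0.39 ± 0.13) and Egfl7. Pecam1 was at 8.83 to 8.97 in young callus and at 8.36, 8.94, 8.33, 8.47 and 8.53 in old, with old replicate 2 alone inside the young range. The endothelial count was 2 without old replicate 3 and 10 without old replicate 2.

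Osteoclast genes tended the other way. Of 20 measured, 15 had a higher mean in old callus (median 0.28), and 5 were higher and 0 lower at unadjusted p under 0.05: the fusion protein Ocstamp (0.92 ± 0.36), Oscar (0.65 ± 0.31), the proton pump subunit Tcirg1, Csf1r and the chloride transporter Clcn7. The effector genes Acp5, tartrate-resistant acid phosphatase (0.30 ± 0.33), and Ctsk (−0.15 ± 0.31) did not pass that threshold. The list mean was 8.54 to 8.78 in young and 8.60 to 9.11 in old callus, highest in old replicates 2 and 5. Without either of those the count was 0, without young replicate 1 it was 1, and without young replicate 2, 3 or 5 it was 2, while the median stayed between 0.21 and 0.33.

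Cell division and signalling lists showed a shared direction or none. All 44 mitosis genes had a higher mean in old callus (median 0.23), yet 1, Melk, was at unadjusted p under 0.05. Mki67, a marker of dividing cells, read 9.50, 8.70, 9.89, 8.72 and 10.27 in young and 10.24, 8.50, 10.15, 9.60 and 9.69 in old callus, fully mixed (0.22 ± 0.28). Of 32 replication genes 31 had a higher mean (median 0.26) and 2, Rrm2 and Chaf1b, were at that threshold. Both counts moved with single arrays: the mitosis count was 10 without young replicate 5, 7 without old replicate 2 and 4 without young replicate 3, and the replication count 7, 11 and 4. Each was 0 without old replicate 3 or young replicate 2, and the medians ran from 0.11 to 0.41 and from 0.09 to 0.38. Wnt (median 0.00 over 26), BMP and TGF-beta (−0.11 over 28) and hedgehog signalling (0.02 over 10) each had 0 higher and 1 lower, namely Lrp6, Bmpr2 and Gas1. The ligand Bmp2 differed by −0.22 ± 0.17 and Wnt4 by −0.12 ± 0.12. Senescence and secreted factors had a median of 0.01 over 19, with Cdkn2a, the cell cycle inhibitor gene used as a marker of senescence, at −0.13 ± 0.10.

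The remaining lists had medians from −0.08 to 0.11. Eosinophil, mast cell and basophil genes had 4 of 18 higher and 0 lower (median 0.05), with the eosinophil granule protein Prg2 at 1.12 ± 0.51. Hypoxia and glycolysis genes had 4 of 23 higher and 1 lower (median 0.11), including the glucose transporter Slc2a1 (0.49 ± 0.15) and Aldoa (0.67 ± 0.19). Stromal genes had 3 of 17 lower and 1 higher (median −0.08): Lepr (−0.55 ± 0.25), Kitl (−0.49 ± 0.17) and Ebf3 were lower and Thy1 was higher. Adipocyte (0.10), dendritic cell (0.11), plasma cell (0.11), pericyte (−0.06), progenitor (−0.01), nerve (−0.02), respiration (−0.04), growth (−0.06), matrix protease (−0.01), immediate early (−0.05), clock (−0.04) and skin (−0.02) lists lay near the median of all genes. Leaving out 1 array gave 0 to 6 higher eosinophil and mast cell genes, 3 to 8 higher hypoxia genes and 1 to 4 lower stromal genes.

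The age difference at day 20 was set beside that at the other days, for which other mice were used. Across all genes the differences at day 20 had a Pearson correlation of 0.40 with those at day 0, 0.25 with day 5 and 0.04 with day 10, where genes are not independent points. Of the genes at unadjusted p under 0.05 at day 20, 257 were so with the same sign at day 0 (8.80% of the day 20 list and 19.7% of the day 0 list), and 23 with the opposite sign. At day 5 the numbers were 399 (13.7% and 13.4%) and 133. At day 10 the numbers were 135 (4.62% and 8.75%) and 61. Of all genes 6.55% passed in either direction at day 0, 15% at day 5 and 7.74% at day 10. Of 12 genes called at day 0, all higher in old bone (0.0602% called), 11 had the same sign at day 20 and 7 also an unadjusted p under 0.05. They included the interferon-induced Oasl2 (1.34 at day 0 and 0.75 at day 20), Rtp4 (1.35 and 0.78) and Ubd (1.82 and 1.21). Of 10 genes called at day 10 (0.0502% called), 7 had the same sign at day 20 and 0 an unadjusted p under 0.05.

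**Figure D5:**
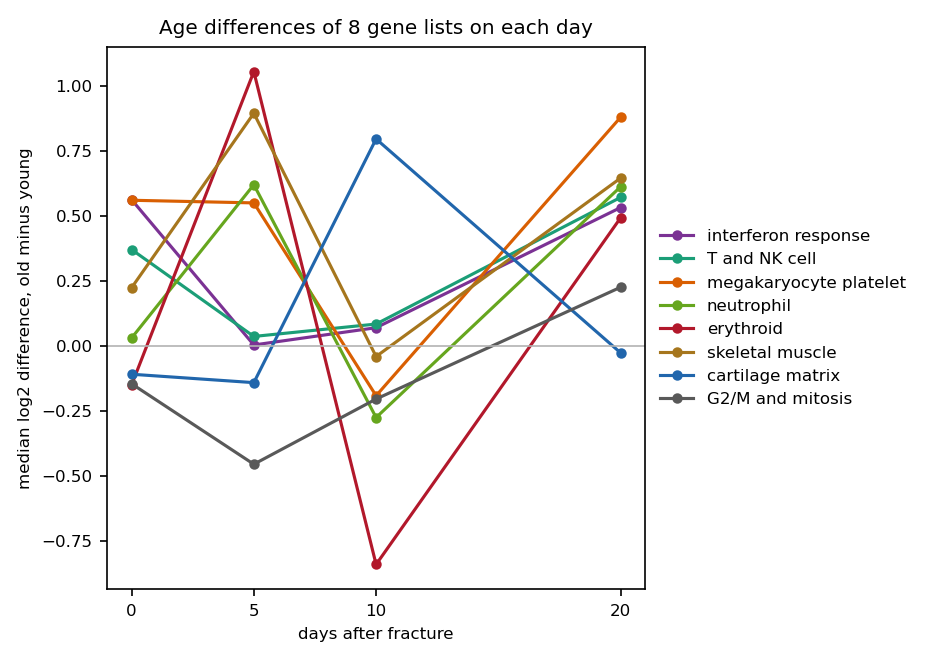
Median log2 difference, old minus young (y axis), of 8 gene lists at 0, 5, 10 and 20 days after fracture (x axis), each point over the list's measured members. At day 20 the blood, immune and muscle lists lie above 0, while at day 10 the cartilage list is highest (0.80) and the erythroid list lowest (−0.84).

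The list medians at day 20 and day 10 differed most for marrow, cartilage matrix and muscle genes. Cartilage matrix had a median of 0.80 at day 10 and −0.03 at day 20, hypertrophic cartilage 0.56 and 0.04, erythroid −0.84 and 0.49, neutrophil −0.28 and 0.61, platelet −0.19 and 0.88, and skeletal muscle −0.04 and 0.65. Tested gene by gene, the change of the age difference from day 10 to day 20 was called for 0 genes by limma (0% called). At unadjusted p under 0.05 682 genes had a higher and 1213 a lower age difference at day 20 (3.42% and 6.08%). Of the lists, 14 of 23 neutrophil, 12 of 23 erythroid, 11 of 36 T and NK and 9 of 13 platelet genes were higher at that threshold, and 11 of 25 cartilage genes lower. Against day 5, 1 gene was called (0.00502%): Asrgl1, which encodes an asparaginase. It differed by 0.82 between the ages at day 5 (old 7.70 ± 0.36, young 6.88 ± 0.19) and by −0.23 at day 20 (old 7.45 ± 0.08, young 7.68 ± 0.15), a fall of the difference by 1.04 on the log2 scale (SE 0.16, adjusted p = 0.00143). Mitosis genes had 26 of 44 with a higher age difference at day 20 than at day 5 at unadjusted p under 0.05, where 4.81% of all genes did. Their median age difference was −0.46 at day 5, lower in old callus, and 0.23 at day 20. Against day 0, 0 genes were called by limma and 1209 were at unadjusted p under 0.05 (6.06%).

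The authors' deposited table gave the same comparison by analysis of variance. In it 0 of 28815 probe sets had a step-up adjusted p under 0.05, 4184 had an unadjusted p under 0.05, and the smallest step-up p was 0.0728. For Ccl8 the authors' deposited table gave a ratio of 3.73 and a step-up p of 0.0728.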

How the data were processed

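Per the submitters' processing notes, Partek was used. How it corrected background and summarized probes, and its version, was not given in the sources used here. The authors deposited log2 normalized intensities in 2 tables with identical values (0 cells differed). The authors' p-value and ratio columns, from an analysis of variance per the file headers, were read as deposited. Array medians lay between 5.374 and 5.483. Of 28815 probe sets 21782 had 1 gene in the platform annotation, and the brightest of several was kept, giving 19938 genes. Limma 3.58.1 (R 4.3.3) was fitted to the 41 arrays with a mean for each of 8 groups (33 residual degrees of freedom), and p values were adjusted by Benjamini-Hochberg over all genes. Changes carry the moderated SE and levels the SD. Lists gave counts and medians only: of 943 members listed 857 were measured. Members, lists and rules were chosen with earlier results of these data known. The rule named the 20 genes with the smallest p, since fewer than 10 were called, skipping predicted genes and receptors of smell (among the first ranks AW112010, Gm6583, 2300002M23Rik and Vmn2r23), and for each list its called members or else the first 2 measured. List members named beyond that were chosen after their values were seen. Promoters came from RefSeq (GRCm38.p6), with 13 of the 20 genes matched. Python 3.11.15 with pandas 2.3.3 made the tables, scipy 1.17.1 the permutation test and matplotlib 3.10.9 the plots. Alternatives were other normalizations, filters on dim genes, probe averaging, other priors, array weights, the replicate block, a fit of the compared arrays alone and leaving out each array. The fit was also run on simulated data with independent noise for each gene. That run does not show how the fit behaves where genes vary together across arrays, as they do here. The number of arrays limits the precision.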

Additional observations from a re-analysis of the deposited data

Results flagged for a closer look

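In 4 of 124 groups of 5 arrays tested, made up of 84 list means and 40 levels of single genes, all 4 of them list means, the highest or lowest array was separated from its nearest neighbour by a gap large against the range of its group. Chance flags about 1 in 20 such groups. Old replicate 2 was lowest among old arrays in the neutrophil list (7.98, others 8.57 to 8.80), the eosinophil, mast cell and basophil list (5.14, others 5.45 to 5.51) and the skeletal muscle list (8.24, others 9.37 to 9.66). Young replicate 3 was highest among young arrays in the muscle regeneration list (5.57, others 5.29 to 5.36). Asrgl1 had an age difference at day 20 that lay −1.04 from that at day 5 in a test of that difference (limma, adjusted p = 0.00143).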

How the results depend on the processing

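None of the 20 genes with the smallest p changed sign under any alternative. The medians of 13 lists did under at least 1, each at most 0.0541 in size as reported: with 1 array left out cartilage matrix ran from −0.30 to 0.12, hypertrophic cartilage from −0.12 to 0.18, osteoblast from −0.24 to 0.06, B cell from −0.06 to 0.12 and hedgehog from −0.05 to 0.10. Day 20 calls, 1 as reported, numbered 3 after quantile normalization, 2 under the milder and 6 under the stricter filter on dim genes, 2 with a trended robust prior, 5 with array weights and 0 in an unmoderated test. They numbered 0 to 82 when 1 array was left out, 0 without young replicate 1, 2 or 4 or old replicate 3 or 5, and 82 without old replicate 1. Ccl8 had 1.90 (adjusted p = 0.0657) in the unmoderated test and 1.78 to 2.03 with 1 array left out. Calls for day 20 minus day 10, 0 as reported, numbered 3 with array weights and 0 to 5 with 1 array left out. Those for day 20 minus day 5, 1 as reported, numbered 2 after quantile normalization and 1 to 30, with 30 when old day 5 replicate 1 was left out. The 2920 genes at unadjusted p under 0.05 became 1759 under the stricter filter, where 928 were higher and 831 lower against 1194 and 1726, and 1895 to 3520 with 1 array left out, 1895 being without old replicate 3. Fewer genes were tested under the filters. The cause of the other shifts was not tested. The replicate numbers are shared by the ages. Deviations of same-numbered arrays from their group means correlated by −0.12, 0.30, 0.22, 0.01 and 0.11. Differently numbered arrays were not set beside them, so these values do not show whether the numbers mark a pairing. With the replicate block 2 genes were called. Of the 19 other genes with the smallest p, 18 passed the threshold under at least 1 alternative. There were 20 alternatives for each gene and 55 passes in all, so most fits did not call these genes. The array values give no read depth.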

Other observations

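Gene families grouped by symbol were examined after values were seen and are given as descriptions. Over all genes 43.2% had a higher mean in old callus. Of 370 zinc finger genes (Zfp, Zkscan and Zscan) 256 had the lower mean in old callus, with a median of −0.08, and 49 were lower (13.2%) against 13 higher (3.51%) at unadjusted p under 0.05, where 8.66% and 5.99% of all genes were. Their family mean was 5.74 to 5.79 in young callus and 5.73, 5.74, 5.59, 5.73 and 5.65 in old replicates 1 to 5, so that replicates 3 and 5 were lowest. Of 54 small nucleolar RNAs 38 had the lower mean in old callus (median −0.11), with 9 lower and 3 higher at that threshold, and 0 without overlap. The median of these RNAs was −0.04 at day 0, −0.26 at day 5 and −0.24 at day 10. The lower mean was also in old callus for 214 of 302 microRNAs and 34 of 52 cytokeratins. Both families were dim, with family means of 4.06 to 4.23 and 4.28 to 4.43 over the day 20 arrays. The medians of those arrays over all genes were 5.65 to 5.74. For ribosomal protein genes 32 of 57 had the lower mean in old callus, near the share of all genes. The higher mean was in old callus for 19 of 31 histone, 12 of 19 Ms4a and 5 of 8 Gimap genes.

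AW112010, an unnamed transcript that the rule for naming genes skipped, had the third smallest p. It read 7.05, 7.18, 7.28, 6.81 and 7.96 in young and 7.98, 7.85, 10.06, 9.02 and 9.16 in old callus (1.56 ± 0.32, adjusted p = 0.0686), and differed by 1.12 at day 0, 0.34 at day 5 and −0.11 at day 10. Only old replicate 2 lay inside the young range.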
